A study of Homo sapiens with 24 samples.

Results

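The genes of the proteasome were followed through an array study of the microRNA miR-638 in DU145 cells, an established human prostate cancer line. The genes were taken by name: every probe whose annotated symbol reads PSM, a letter from A to G and a number was a member, and the probe of highest mean signal over all 24 arrays stood for its symbol. This gave 44 genes with 70 probes (26 genes with 1 probe, 18 with several) among 20046 genes with a single annotated symbol. Of the 48 symbols of this form in RefSeq, PSMA7, PSMC5, PSMD7 and PSMD13 were not analysed here. The members fell into 6 alpha subunits of the 20S core (PSMA1 to PSMA6), 7 constitutive beta subunits (PSMB1 to PSMB7), 5 immunoproteasome genes (PSMB8, PSMB9, PSMB10, PSME1 and PSME2), 5 ATPases of the 19S particle (PSMC1 to PSMC4 and PSMC6) and 12 genes of the PSMD series. A further 4 encode assembly chaperones (PSMG1 to PSMG4), and the last 5 were the activators PSME3 and PSME4, the inhibitor PSMF1 and the tissue-restricted core subunits PSMA8 and PSMB11.

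All cells were DU145 grown in DMEM with serum, and each group carried a transfected small RNA, the controls included. In the mimic experiment total RNA was measured after a miR-638 mimic, the control mimic NC2 or the control mimic NC1, with 4 arrays each. In the pulldown experiment the cells received biotinylated miR-638, miR-17, NC2 or NC1, and the RNA recovered with the biotin was measured, with 3 arrays each. No array held the total RNA of these pulldown cells, and no group received a miR-17 mimic. A difference in recovery therefore cannot be told apart from a difference in the amount of a transcript in the cells. The labels number the replicates but do not say whether they were separate cultures, so every p-value measures the spread between these arrays, which may be technical.

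The proteasome degrades proteins tagged with ubiquitin. Its barrel, the 20S core, stacks rings of alpha subunits, which gate the entry, on rings of beta subunits, of which PSMB6, PSMB7 and PSMB5 carry the caspase-like, trypsin-like and chymotrypsin-like active sites. The 19S particle caps the barrel, and its ATPases unfold the substrate while its other subunits bind and remove ubiquitin. Interferons induce the alternative catalytic subunits PSMB9, PSMB10 and PSMB8, which replace PSMB6, PSMB7 and PSMB5 in new particles and favour peptides that fit MHC class I molecules. PSME1 and PSME2 together form the PA28 alpha/beta cap, also induced by interferon, whereas PSME3 forms a nuclear PA28 gamma cap that works without ubiquitin.

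The microRNAs that define the groups have different seeds, the bases 2 to 8 that pair with targets. They are shown from RefSeq with the seed in capitals, since every comparison turns on them. The labels do not name the arm of miR-17, so both mature arms are given.
hsa-miR-638: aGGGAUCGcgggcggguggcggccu
hsa-miR-17-5p: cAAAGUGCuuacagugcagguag
hsa-miR-17-3p: aCUGCAGUgaaggcacuuguag
On GRCh38.p14 the mature miR-638 lies at chr19:10718419-10718443, miR-17-5p at chr13:91350618-91350640 and miR-17-3p at chr13:91350655-91350676, all on the plus strand. No probe sequence or transcript end was searched for these seeds.

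Values are log2 intensities after background correction and quantile normalization within each experiment. A level of one probe is never set against that of another, since brightness depends on the probe. Of the 44 genes, 41 were detected often enough to be tested in both experiments. PSMA8, a testis-type alpha subunit, PSMB11, the thymus-type beta subunit, and PSMF1, an inhibitor of the core, were detected on 0 of 24 arrays, and no ratio is given for them. A gene was called changed at an adjusted p under 0.05 over all 12624 genes tested in the mimic experiment or all 13084 in the pulldown.

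The arrays averaged a signal of at most 463 for the mimics and of 428 to 629 for the pulldowns, and they detected 43.6% to 47.1% and 44.3% to 47.8% of the probes. The epithelial markers KRT8, KRT19, EPCAM and CDH1 were detected on 24 of 24 arrays and KRT18 on 16. The luminal prostate markers KLK3, KLK2 and TMPRSS2 were detected on 0 arrays. Of the blood markers PTPRC and CD3E were detected on 0 arrays, CD14 on 24, CD79A on 22, LYZ on 20, CD74 on 18 and HBB on 4. Of the fibroblast markers COL1A2 was detected on 23 arrays, COL1A1 on 22, DCN on 6 and LUM and PDGFRB on 0.

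The 12 mimic arrays split by replicate number, and the split ran through the proteasome genes. Arrays of replicates 3 and 4 stood apart from those of replicates 1 and 2 in all 3 groups. All 5 immunoproteasome genes were higher in replicates 3 and 4, PSMB9 by 2.54 (log2, SE 0.08, 5.82-fold), PSMB8 by 1.69 (SE 0.05, 3.24-fold), PSME1 by 0.83 (SE 0.05), PSME2 by 0.60 (SE 0.05) and PSMB10 by 0.42 (SE 0.05). Most other members were lower there, and the genes of the PSMD series were lower in 12 of 12 cases. The labels do not say what the numbers stand for, and the split was seen on these same arrays, so these values describe the 12 arrays and not a condition.

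PSMB9, the caspase-like site's replacement, had log2 intensities of 8.55 and 8.46 in replicates 3 and 4 of the miR-638 mimic, against 6.27 and 6.18 in replicates 1 and 2. With the NC2 mimic it had 9.11 and 8.87 in replicates 3 and 4, against 6.08 and 6.11 in replicates 1 and 2, and with the NC1 mimic 8.04 and 8.06 against 5.76 and 5.45. The lowest array of replicates 3 and 4 lay well above the highest of replicates 1 and 2. PSMB8, the replacement of the chymotrypsin-like subunit, ran over the 3 groups from 10.07 through a median of 10.33 to 10.40 in replicates 3 and 4, against 8.38, 8.54 and 8.90 in replicates 1 and 2. These ranges did not overlap either. PSME1 ran from 11.78 through 11.95 to 12.17 in replicates 3 and 4, against 11.03, 11.14 and 11.21 in replicates 1 and 2. Its partner PSME2 ran from 10.81 through 11.02 to 11.31, against 10.32, 10.43 and 10.56. PSMB10, the trypsin-like site's replacement, overlapped slightly, with 10.70 to 11.10 in replicates 3 and 4 and 10.29 to 10.71 in replicates 1 and 2.

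**Figure D1:**
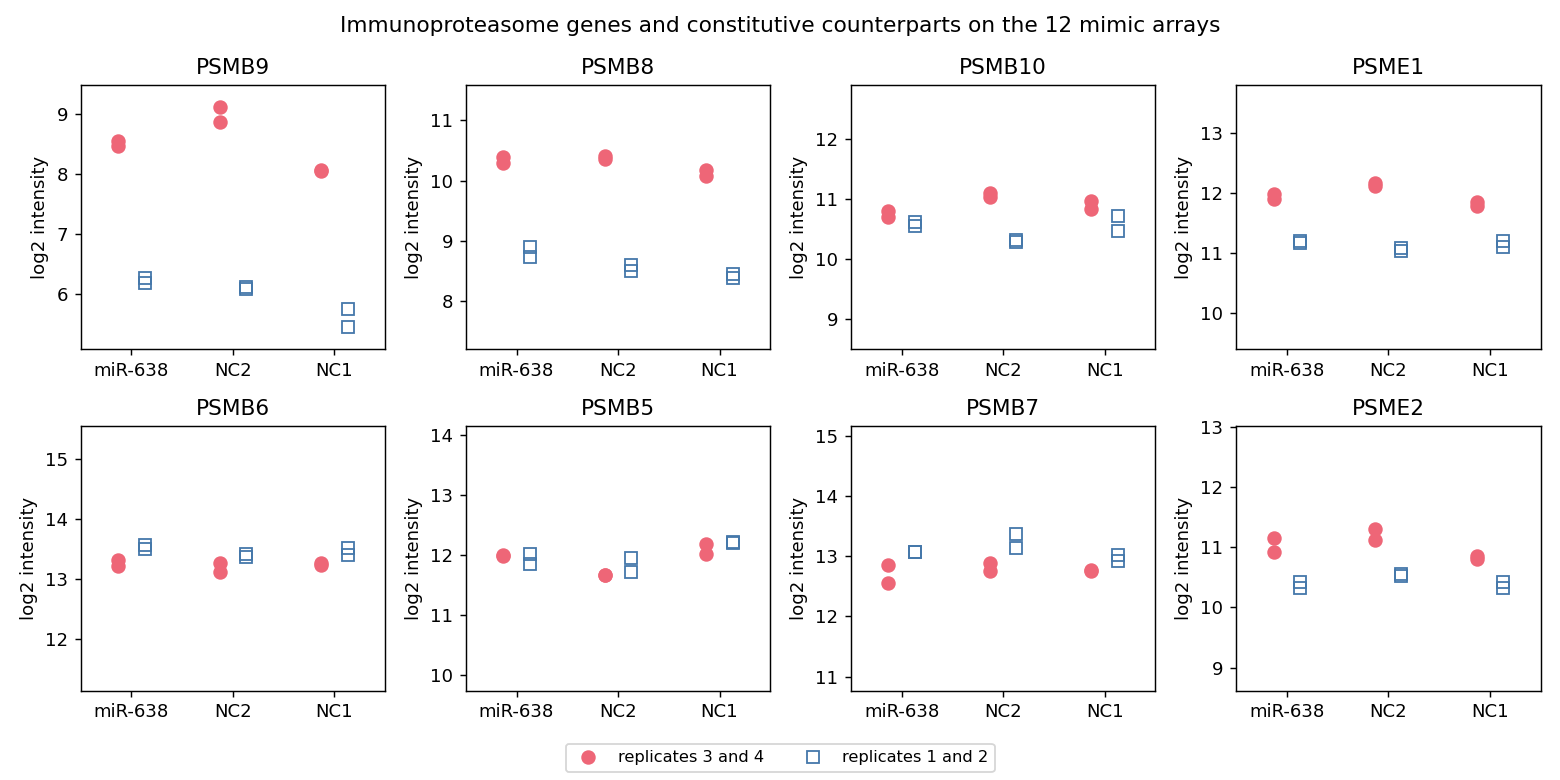
Log2 intensity (y axis, each panel spanning the same number of log2 units) of the 5 immunoproteasome genes and of PSMB6, PSMB5 and PSMB7 on the 12 mimic arrays, by group (x axis). Filled circles are replicates 3 and 4 and open squares replicates 1 and 2. Within every group the 5 immunoproteasome genes are higher in replicates 3 and 4 without overlap, and PSMB6 and PSMB7 are lower without overlap. PSMB5 overlaps in the miR-638 group.

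The step had the same direction in each group. PSMB9 differed by 2.28 with miR-638, 2.89 with NC2 and 2.45 with NC1, and PSMB8 by 1.53, 1.84 and 1.71. PSMB10 differed by 0.17 with miR-638, 0.77 with NC2 and 0.31 with NC1, and PSME1 by 0.76, 1.09 and 0.66. Each alternative subunit was also set against the subunit it replaces, as a difference of changes rather than of levels. The PSMB9 to PSMB6 ratio was higher by 2.77 in replicates 3 and 4, the PSMB8 to PSMB5 ratio by 1.76 and the PSMB10 to PSMB7 ratio by 0.75. The probes of a gene differed in size but not in direction: the 3 further PSMB8 probes gave 1.70, 1.59 and 0.41, the second PSMB9 probe 0.88 and the second PSME1 probe 0.27.

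The split touched most of the array: 57.4% of all genes tested were past the threshold, 26.4% higher and 31.1% lower. Of the proteasome genes 35 of 41 were, 10 higher and 25 lower. The replicates did not overlap for 14 of 41 members, 5 higher and 9 lower, and for 21.6% of all genes. The median difference was -0.21 over the 41 genes and -0.03 over all genes. Among the 7 constitutive beta subunits 0 were higher and 5 lower, with PSMB7 at -0.33 (SE 0.05) and PSMB6 at -0.23 (SE 0.05), while PSMB5 (-0.07) and PSMB2 (-0.10) were not called. PSMB6 had 13.21, 13.32, 13.27, 13.12, 13.23 and 13.27 over the groups miR-638, NC2 and NC1 in replicates 3 and 4, against 13.50, 13.56, 13.42, 13.36, 13.51 and 13.40 in replicates 1 and 2. The ranges of PSMB6 did not overlap, and neither did those of PSMB7, at 12.56 to 12.89 in replicates 3 and 4 and 12.92 to 13.37 in replicates 1 and 2. Among the alpha subunits PSMA2 was lower by 0.56 (9.31 in replicates 3 and 4, against 9.87 in replicates 1 and 2), and PSMA3 was higher by 0.29.

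The 19S particle was lower in most of its genes. All 12 PSMD genes were called lower, with a median of -0.29. PSMD8, a lid subunit, averaged 9.47 in replicates 3 and 4 and 10.04 in replicates 1 and 2 (difference -0.56, SE 0.07). PSMD9, an assembly factor of the base, differed by -0.52 (SE 0.08), and PSMD14, the deubiquitinase of the lid, by -0.34 (SE 0.05). Of the ATPases PSMC3 and PSMC4 were lower, PSMC6 was higher by 0.20, and PSMC1 and PSMC2 were not called. PSME3 was lower by 0.42 (SE 0.05), opposite to PSME1 and PSME2. Of the chaperones PSMG1 and PSMG4 were higher and PSMG3 lower.

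**Figure D2:**
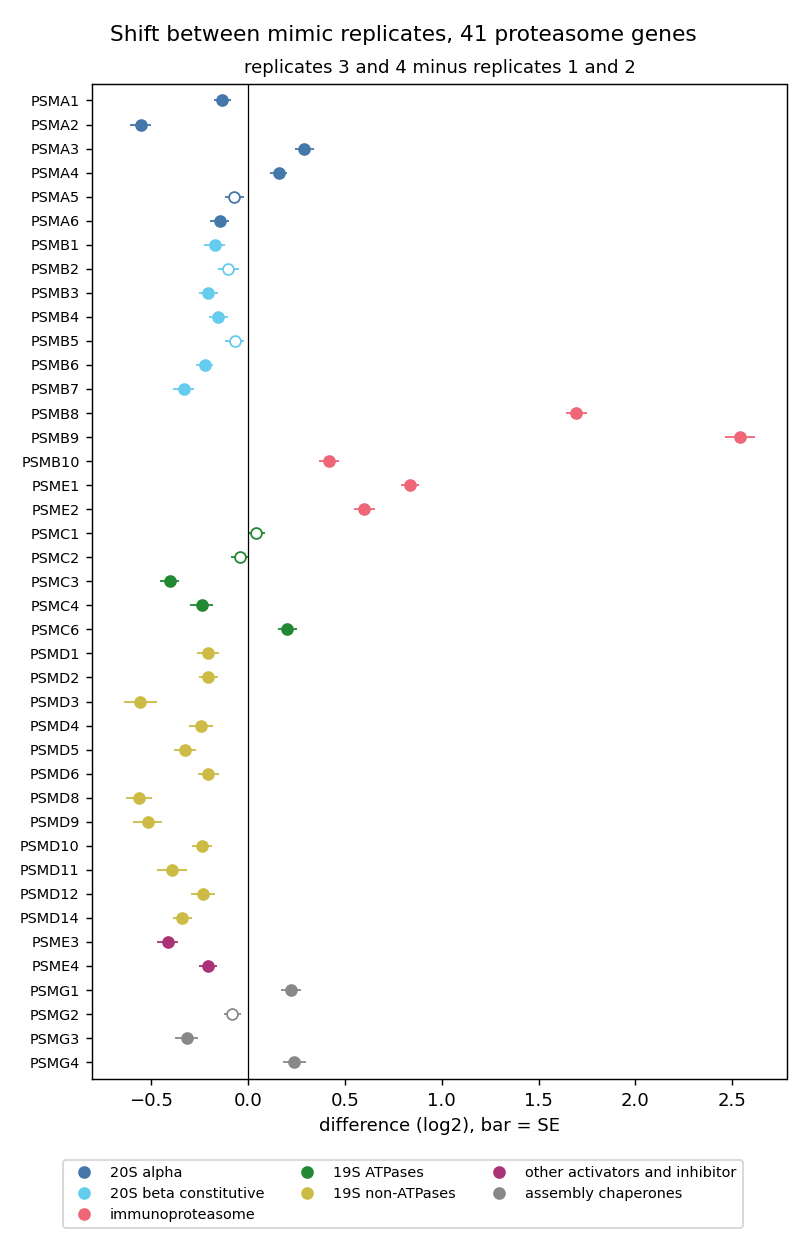
Difference between replicates 3 and 4 and replicates 1 and 2 of the mimic arrays (x axis, log2) for the 41 tested proteasome genes (y axis), with bars of 1 SE. Colours give the role, filled points passed an adjusted p under 0.05. The 5 immunoproteasome genes lie between 0.42 and 2.54, and the 12 PSMD genes all lie below 0.

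Other gene lists were read over this split, in which 26.4% of all genes were higher and 31.1% lower. Of the genes of antigen presentation, which load the peptides on MHC class I, 12 of 16 were tested, 10 were higher in replicates 3 and 4 and 1, CALR, was lower (-0.33), and the median was 0.65. The transporter TAP1 was higher by 0.94, HLA-B by 0.98, HLA-C by 1.01, HLA-F by 1.07, B2M by 0.67 and the interferon-induced factor IRF1 by 0.63. Of 28 partner genes of the proteasome 23 were tested, 3 were higher and 11 lower, with a median of -0.12. ADRM1, a ubiquitin receptor of the 19S particle, was lower by 0.32, and the core chaperone POMP differed by -0.08 (adjusted p = 0.165). NFE2L1, the factor that drives proteasome genes when the proteasome fails, differed by -0.01 (adjusted p = 0.904).

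Cell type markers and depth were read over the same split. Of the 7 blood markers 4 were tested: CD74, which is also a chaperone of MHC class II, was higher by 2.96, CD14 by 1.31 and CD79A by 0.94, and LYZ was lower by 0.28. Their summed intensity ran from 610 to 789 in replicates 3 and 4, against 277 to 323 in replicates 1 and 2, while PTPRC and CD3E were detected on 0 arrays. The summed epithelial markers ran from 8147 to 10151 in replicates 3 and 4, against 4551 to 5439 in replicates 1 and 2, with EPCAM higher by 1.72 and CDH1 by 1.04. The summed fibroblast markers overlapped, at 102 to 111 in replicates 3 and 4 and 95.9 to 116 in replicates 1 and 2. In bulk RNA a change in the share of cells and a change of RNA per cell cannot be told apart. Mean signal was lower on 3 of the 6 arrays of replicates 3 and 4, with values of 331 and 343 on a pair of them, than on any array of replicates 1 and 2. The other 3 reached up to 453 in replicates 3 and 4, against 373 to 463 in replicates 1 and 2. The part of these markers and of the signal in the differences was not tested.

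The promoters of the immunoproteasome genes that moved with the split are shown for PSMB9, which moved most, and for the 3 genes with a match to the core of the interferon response element, read as GAAA, any 2 bases and GAAA again on either strand. Each line gives 250 bases before to 50 after the start of the gene from RefSeq (GRCh38.p14), 5′ to 3′ on the gene's strand, with matches in capitals.
PSMB9 (chr6:32853942-32854241, plus strand): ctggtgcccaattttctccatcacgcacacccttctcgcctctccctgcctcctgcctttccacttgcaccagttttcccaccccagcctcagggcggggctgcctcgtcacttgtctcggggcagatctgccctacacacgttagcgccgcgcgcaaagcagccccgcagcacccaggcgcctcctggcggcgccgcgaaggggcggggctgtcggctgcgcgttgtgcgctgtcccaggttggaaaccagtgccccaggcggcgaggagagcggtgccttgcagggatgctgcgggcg
PSMB10 (chr16:67936801-67937100, minus strand): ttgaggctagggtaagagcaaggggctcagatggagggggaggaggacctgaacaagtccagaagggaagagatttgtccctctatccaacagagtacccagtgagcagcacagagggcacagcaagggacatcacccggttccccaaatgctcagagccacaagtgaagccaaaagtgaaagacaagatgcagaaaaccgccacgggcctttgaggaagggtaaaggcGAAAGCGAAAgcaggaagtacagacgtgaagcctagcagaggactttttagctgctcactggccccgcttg
PSME1 (chr14:24135944-24136243, plus strand): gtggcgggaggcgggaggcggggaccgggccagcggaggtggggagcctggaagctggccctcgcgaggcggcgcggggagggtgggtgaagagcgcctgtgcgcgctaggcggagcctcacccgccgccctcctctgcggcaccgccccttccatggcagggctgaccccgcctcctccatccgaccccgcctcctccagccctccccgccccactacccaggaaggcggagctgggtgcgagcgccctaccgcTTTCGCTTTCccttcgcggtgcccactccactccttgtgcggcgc
PSME2 (chr14:24146561-24146860, minus strand): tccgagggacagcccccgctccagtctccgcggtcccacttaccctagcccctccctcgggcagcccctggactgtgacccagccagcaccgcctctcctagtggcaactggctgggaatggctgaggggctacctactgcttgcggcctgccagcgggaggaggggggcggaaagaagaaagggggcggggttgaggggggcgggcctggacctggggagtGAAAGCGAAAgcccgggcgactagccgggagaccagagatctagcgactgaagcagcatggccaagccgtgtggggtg
The match began 21 bases before the start in PSMB10 and 28 before it in PSME2, both reading GAAAGCGAAA, and 5 after it in PSME1, where it reads TTTCGCTTTC. Of the 5 immunoproteasome promoters 3 held such a match, as did 3 of 34 promoters of other members (8.82%; PSMA4, PSMB4 and PSMG4) and 3.57% of 35116 promoters of the same length. PSMB8 and PSMB9 held none. The gamma-activated site TTCNNNGAA was in 0 of 5 immunoproteasome promoters, 5 of 34 others (14.7%) and 7.66% of all. The antioxidant element TGACNNNGC was in 3 of 5, 10 of 34 (29.4%) and 13.3% of all. Both were searched on either strand, and no match shown in capitals overlapped another motif's match. A match is a run of letters and not a measured site, and 5 of the 44 members had no promoter in the table.

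With the split in view, the question of the mimic experiment was whether raised miR-638 moved the proteasome genes. PSME3, the PA28 gamma subunit, fell by 0.61 on the log2 scale with the miR-638 mimic against both control mimics (SE 0.14, n = 4 against 8, 1.52-fold, adjusted p = 0.039 by limma). It was the 1 member called of 41, where 3.35% of all genes tested were called. No member rose past the threshold, and 1 of 41 was past an unadjusted p of 0.05, against 14.7% of all genes. The median difference was -0.01 over the 41 genes and -0.00468 over all genes.

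PSME3 had 10.06 and 10.28 in replicates 3 and 4 of the miR-638 mimic, against 10.61 and 10.78 with NC2 and 10.69 and 10.66 with NC1. In replicates 1 and 2 it had 10.49 and 10.44 with miR-638, against 11.30 and 11.16 with NC2 and 11.05 and 11.15 with NC1. Every miR-638 array lay below all 8 control arrays, and 2.49% of all genes were separated in this way in either direction. The decrease was 0.52 within replicates 3 and 4 and 0.70 within replicates 1 and 2, each with an SE of 0.08. The second PSME3 probe gave -0.63 (SE 0.14). Against NC2 alone the difference was -0.65 (adjusted p = 0.0349), again the 1 member called, where 6.88% of all genes were. Against NC1 alone it was -0.57 (adjusted p = 0.113), and 0 of 41 members were called, where 2.82% of all genes were. In that comparison 3 members were past an unadjusted p of 0.05, where 12% of all genes were. The call was lost when any of the miR-638 arrays or any of replicates 1 and 2 of the controls was left out (8 of 12 arrays, adjusted p from 0.0621 to 0.115).

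With replicate number as a block, which takes the split out of the error, the PSME3 difference had an adjusted p of 4.36e-07, and 4 of 41 members were called where 19.3% of all genes were. PSMA2 was lower by 0.21 (adjusted p = 0.0457 with the block, 0.723 without), the chaperone PSMG1 was higher by 0.17 (0.022 with the block, 0.417 without) and PSMB8 was higher by 0.21 (0.0303 with the block, 0.935 without). The last 3 calls did not hold against each control. Against NC2 alone PSMB8 differed by 0.11 (adjusted p = 0.295 with the block), PSMG1 by 0.13 (0.113) and PSMA2 by -0.20 (0.0718). Against NC1 alone PSMB8 was higher by 0.31 (0.00899) and PSMG1 by 0.22 (0.0163), and PSMA2 differed by -0.21 (0.0915). Within replicates 3 and 4 PSME3 was the 1 member called, where 6.82% of all genes were, and PSMB8 differed by 0.09 (adjusted p = 0.629) and PSMB9 by -0.01. Within replicates 1 and 2 there were 5, where 18.6% of all genes were called. PSMB9 was higher there by 0.37 (adjusted p = 0.0238) and PSMB8 by 0.33 (SE 0.08, adjusted p = 0.00468), and PSME3, PSMA2 and PSMB2 were lower. PSMB9 in these replicates differed by 0.13 from NC2 (adjusted p = 0.534) and was higher than NC1 by 0.62 (adjusted p = 0.00185). In replicates 3 and 4 it was lower than NC2 by 0.48 (adjusted p = 0.0155) and higher than NC1 by 0.46 (adjusted p = 0.044).

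The difference of the miR-638 effect between the replicate pairs was tested for every gene. It passed for 0 of 41 members, with 6 past an unadjusted p of 0.05, where 0.507% of all genes passed and 9.64% had an unadjusted p that low. For PSMB9 the effect in replicates 1 and 2 minus that in replicates 3 and 4 was 0.39 (adjusted p = 0.423). Against NC2 alone it passed for 1 of 41 members, PSMB10 (0.60, adjusted p = 0.01), where 1.55% of all genes passed. The remaining immunoproteasome genes showed -0.05 for PSMB10 (SE 0.16), 0.03 for PSME1 and -0.03 for PSME2 in the comparison without the block. Of the constitutive catalytic subunits PSMB6 differed by 0.07 (SE 0.08), PSMB7 by -0.06 (SE 0.12) and PSMB5 by 0.01 (SE 0.07).

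The control mimics differed from each other in the subunit PSMB5. It had 11.67 and 11.67 in replicates 3 and 4 of NC2, against 12.01 and 12.18 with NC1, and 11.71 and 11.95 in replicates 1 and 2 of NC2, against 12.20 and 12.21 with NC1. All 4 NC2 arrays lay below the 4 NC1 arrays. The miR-638 arrays, at 11.84 to 12.02, overlapped both groups. PSMB5 was lower by 0.40 with NC2 (SE 0.08, adjusted p = 0.00689), and the alpha subunit PSMA5 was higher by 0.25 (SE 0.06, adjusted p = 0.0248). PSMA5 had 12.64, 12.82, 12.71 and 12.69 on the NC2 arrays, against 12.55, 12.46, 12.42 and 12.43 on the NC1 arrays, again with no overlap. The control mimics did not overlap for 16.2% of all genes, in either direction.

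These were the 2 members called between the control mimics, where 10.1% of all genes were called. With the block 14 of 41 were called, 12 higher and 2 lower, where 33% of all genes were. PSMB9 was among them, higher by 0.72 with NC2 (adjusted p = 5.97e-05 with the block, 0.710 without), and so was PSMD14, higher by 0.39. PSMB9 was higher by 0.94 within replicates 3 and 4 and by 0.49 within replicates 1 and 2 (SE 0.13 each, adjusted p = 9.50e-06 and 0.00614). Within each pair of replicates 9 of 41 members were called, 7 higher and 2 lower, where 17.1% of all genes were in replicates 3 and 4 and 28.7% in replicates 1 and 2. Of the antigen presentation genes 0 of 12 were called without the block, and with it 5 were higher and 1 lower. Without the block 1 of the 12 was past an unadjusted p of 0.05, where 23.7% of all genes were. Of the partner genes RAD23B and USP14 were lower, by 0.48 and 0.26.

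**Figure D3:**
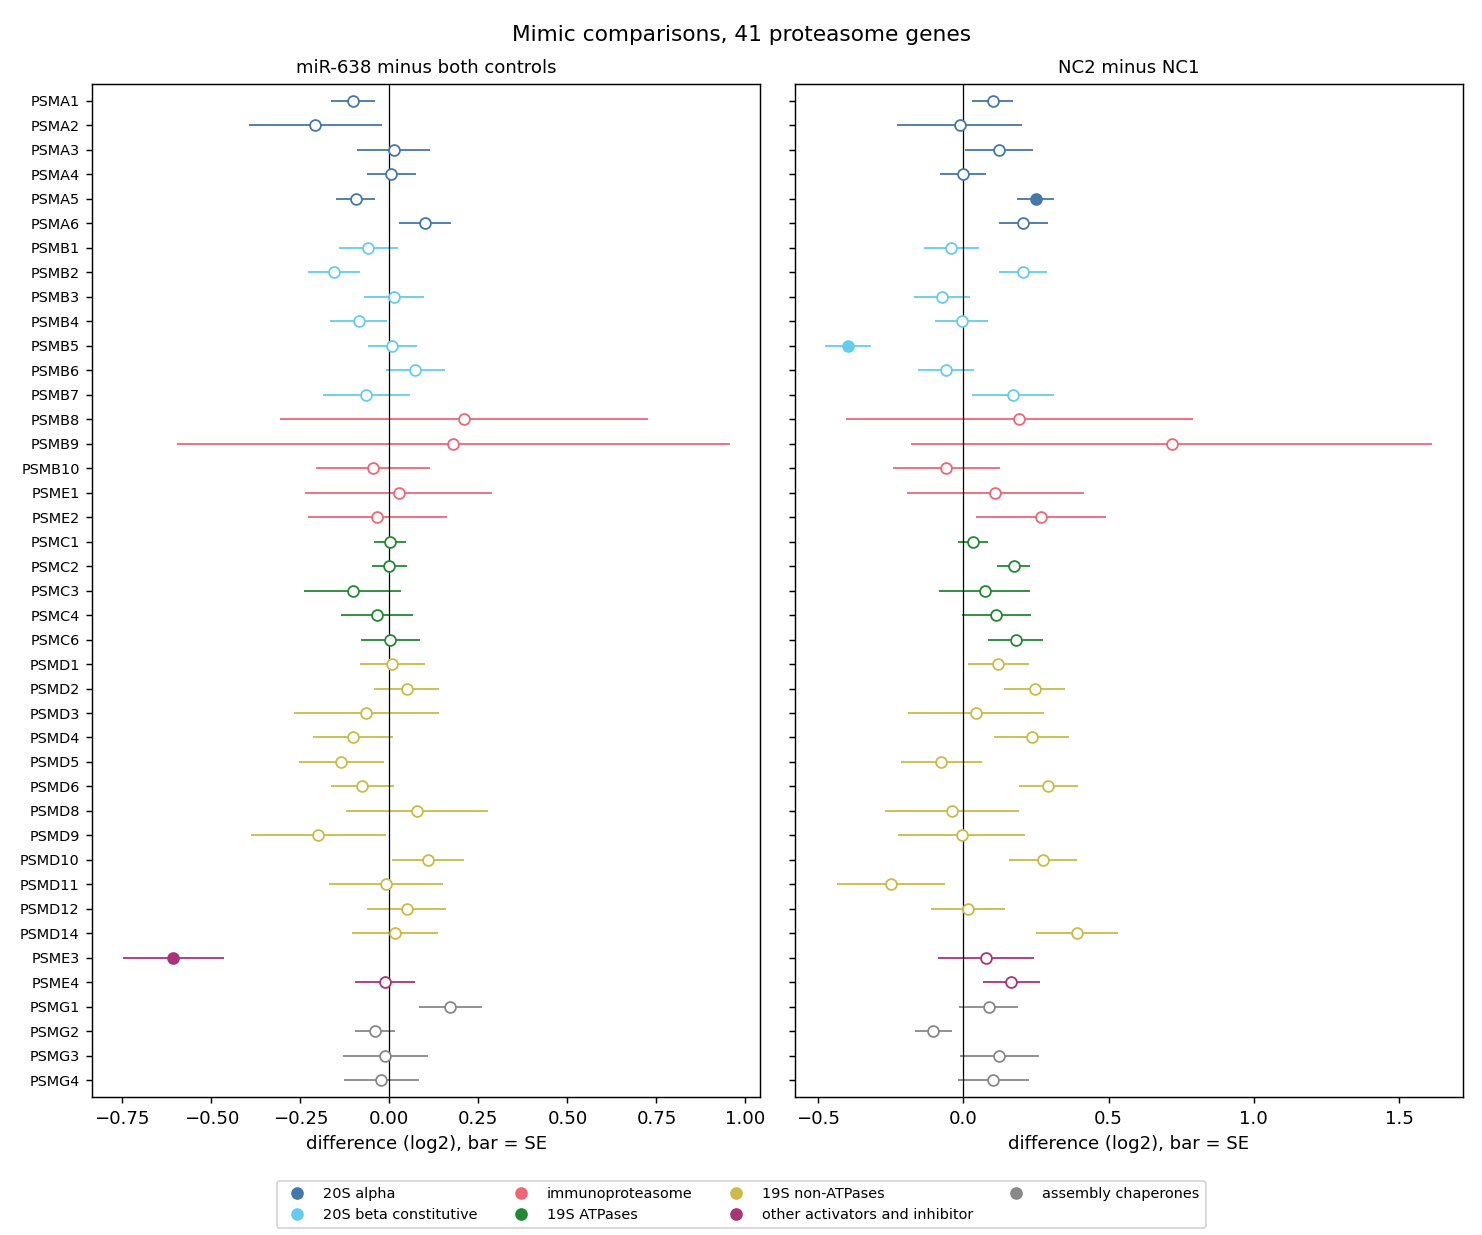
Differences (x axis, log2, bars of 1 SE) of the 41 tested proteasome genes (y axis) for the miR-638 mimic minus both control mimics (left) and the NC2 minus the NC1 mimic (right), fitted without the replicate block. Filled points passed an adjusted p under 0.05: PSME3 on the left, and PSMA5 and PSMB5 on the right. The bars of PSMB9 and PSMB8 on the left are 0.78 and 0.52 long to each side, from a fit whose error includes the replicate split.

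In the pulldown the names of the controls needed care. The 6 columns named NC1 and NC2 pulldown in the deposited signals are exchanged in the authors' value table, while the other 18 columns match their own names. The names of the signals were followed here. Setting a microRNA against both controls together is unaffected by this choice, whereas values against a single control are not. For either microRNA against both controls, the authors' value table called 0 of 41 members, with PSMB9 at -1.26 for miR-17 (adjusted p = 0.0686) and PSMD11 at 0.61 for miR-638 (adjusted p = 0.16).

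With biotinylated miR-638 the 19S lid subunit PSMD11 and the immunoproteasome subunit PSMB10 were higher than with both controls. PSMD11 was higher by 0.65 (SE 0.08, n = 3 against 6, adjusted p = 2.91e-04) and PSMB10 by 0.68 (SE 0.13, adjusted p = 0.00529). PSMB8 was lower by 0.41 (SE 0.11, adjusted p = 0.0323), PSME2 by 0.31 (SE 0.08, adjusted p = 0.0224) and PSMG1 by 0.26 (SE 0.07, adjusted p = 0.0224). These were 5 of 41 members, 2 higher and 3 lower, where 11.2% of all genes were called, a share close to that of the members. With median scaling in place of quantile normalization 3 were higher and 2 lower. The median was -0.09 over the members and -0.01 over all genes.

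PSMD11 had 9.68, 9.72 and 9.73 in the miR-638 pulldown, against 9.33, 9.10 and 9.35 with NC2 and 8.94, 8.81 and 8.84 with NC1. All 3 lay above the 6 control arrays, as in 8.19% of all genes. The control groups did not overlap each other, as in 20% of all genes in either direction. PSMB10 had 11.04, 11.34 and 11.09 with miR-638, against 10.89, 10.18 and 10.24 with NC2 and 10.50, 10.40 and 10.65 with NC1. The miR-638 arrays lay above all controls here too, although 1 NC2 array came close. Both genes were higher than either control alone, PSMD11 by 0.45 against NC2 and 0.84 against NC1, and PSMB10 by 0.72 and 0.64.

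The 3 decreases were called against NC2 alone and not against NC1 alone. Against NC2 alone 10 members were called where 8.75% of all genes were, and 8 were lower, PSMB8 (-0.55), PSME2 (-0.38) and PSMG1 (-0.30) among them. Against NC1 alone 0 members were lower and 2 higher, where 11.1% of all genes were called. There 8 members were past an unadjusted p of 0.05 in either direction, and 27% of all genes. PSMB8 had 8.79, 8.95 and 8.67 with miR-638, against 9.39, 9.22 and 9.44 with NC2 and 9.28, 8.80 and 9.12 with NC1. It thus overlapped NC1 and not NC2. PSME2 had 10.90, 10.94 and 10.95 with miR-638, against 11.39, 11.40 and 11.13 with NC2 and 11.13, 11.24 and 11.16 with NC1, and PSMG1 had 11.67, 11.64 and 11.66, against 11.88, 11.99 and 11.99 with NC2 and 11.87, 11.79 and 11.99 with NC1. Both lay below all 6 control arrays, as 6.7% of all genes did. Against NC1 alone PSME2 differed by -0.25 (adjusted p = 0.0988) and PSMG1 by -0.23 (adjusted p = 0.0713). PSMB8 also depended on the probe: the further 3 gave -0.28, -0.55 and 0.11, and the second PSMG1 probe gave -0.05. Leaving out any of the 3 miR-638 arrays left 2 members called, with 538 to 655 of all genes, against 1461 on every array. Without NC1 pulldown replicate 2 there were 9 members, with 1706 of all genes.

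With biotinylated miR-17, 4 of the 5 immunoproteasome genes were lower than with both controls. PSMB9 was lower by 1.01 (SE 0.10, 2.01-fold, adjusted p = 2.05e-05), PSMB8 by 0.66 (SE 0.11, adjusted p = 0.00129), PSME1 by 0.52 (SE 0.07, adjusted p = 1.30e-04) and PSME2 by 0.46 (SE 0.08, adjusted p = 0.00153). PSMB10 differed by 0.16 (SE 0.13, adjusted p = 0.489). In all 10 of 41 members were called, 3 higher and 7 lower (3 and 4 with median scaling), where 14.3% of all genes were. The median was -0.52 over the 5 immunoproteasome genes, -0.08 over the other 36 and 0.00 over all genes.

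PSMB9 had 7.18, 7.06 and 6.98 in the miR-17 pulldown, against 8.20, 8.31 and 8.22 with NC2 and 8.05, 7.83 and 7.85 with NC1. PSME1 had 10.65, 10.57 and 10.63 with miR-17, against 11.34, 11.27 and 11.28 with NC2 and 11.06, 10.85 and 11.02 with NC1. In both genes, and in PSMB8 and PSME2, every miR-17 array lay below the 6 controls, as 8 of 41 members did and 7.39% of all genes. PSMB8 had 8.53, 8.60 and 8.51 with miR-17. PSME2 had 10.78, 10.91 and 10.66 with miR-17, against 11.39, 11.40 and 11.13 with NC2 and 11.13, 11.24 and 11.16 with NC1. All 4 were lower than each control alone, with PSMB9 at -1.17 against NC2 and -0.84 against NC1, and PSME1 at -0.68 and -0.36. Against NC2 12 members were called, where 11.1% of all genes were, and against NC1 8, where 13.2% were. The second PSMB9 probe gave -0.57 (adjusted p = 0.0326), and the further PSMB8 probes -0.62, -0.44 and -0.08.

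**Figure D4:**
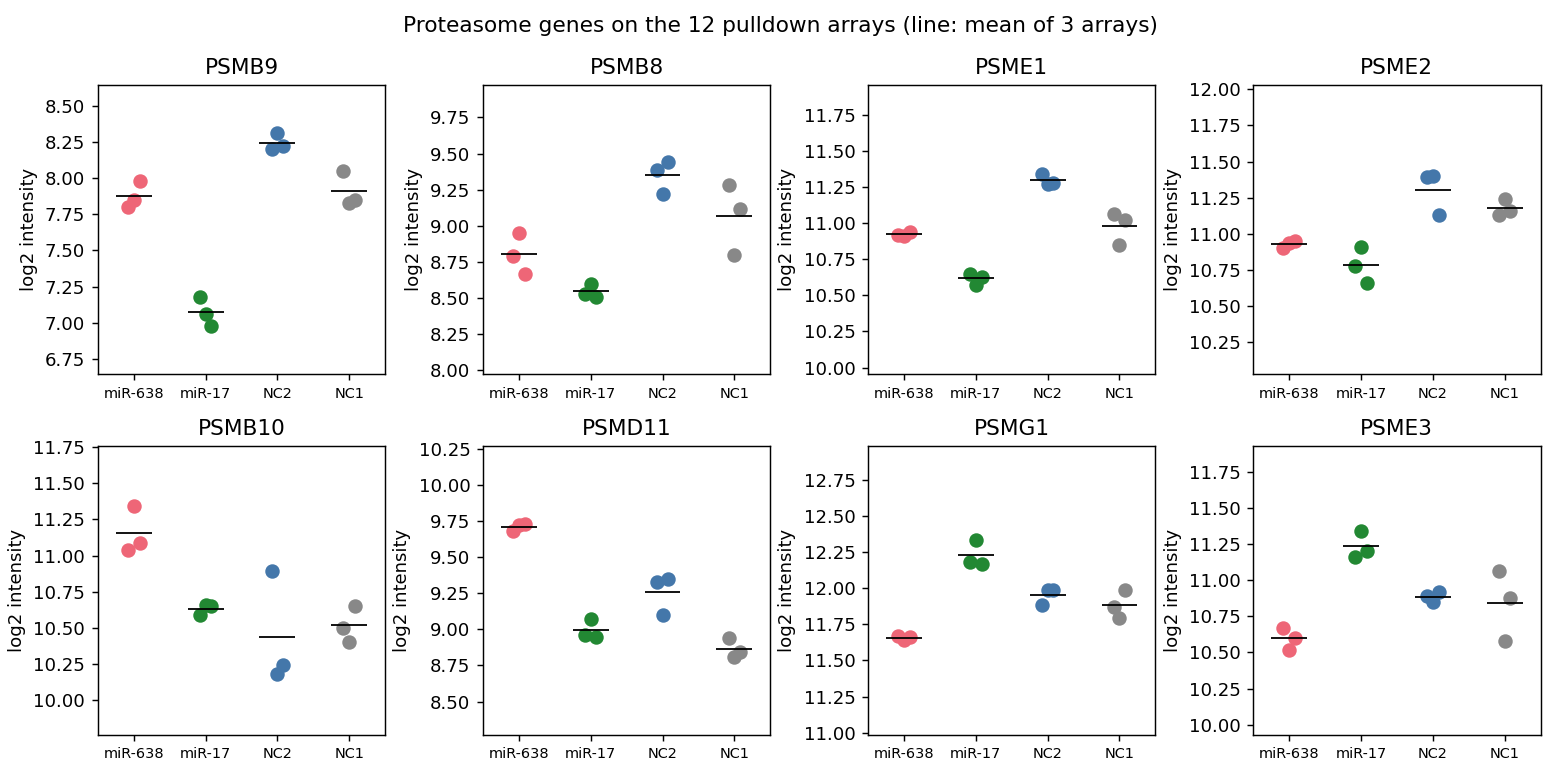
Log2 intensity (y axis, each panel spanning the same number of log2 units) of 8 proteasome genes on the 12 pulldown arrays by group (x axis), with the mean of the 3 arrays as a line. PSMB9, PSMB8, PSME1 and PSME2 are lowest with miR-17, PSMB10 and PSMD11 are highest with miR-638, and PSMG1 and PSME3 are highest with miR-17.

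The other miR-17 calls were smaller. PSMD4, the ubiquitin receptor of the 19S particle, was lower by 0.31 (SE 0.07, adjusted p = 0.00868), the ATPase PSMC6 by 0.26 (adjusted p = 0.0303) and the alpha subunit PSMA5 by 0.23 (adjusted p = 0.0479). PSME3 was higher by 0.37 (SE 0.09, adjusted p = 0.0154), the chaperone PSMG1 by 0.30 (SE 0.07, adjusted p = 0.00746) and the beta subunit PSMB4 by 0.20 (SE 0.06, adjusted p = 0.0437). PSMG1 had 12.18, 12.33 and 12.17 with miR-17, against 11.88, 11.99 and 11.99 with NC2 and 11.87, 11.79 and 11.99 with NC1, with no overlap. PSME3 had 11.16, 11.34 and 11.20 with miR-17, against 10.89, 10.85 and 10.92 with NC2 and 11.06, 10.58 and 10.88 with NC1, and stood above all 6 controls. Of all genes 9.33% stood above all 6 controls with miR-17. PSMB4 had 12.71, 12.77 and 12.75 with miR-17, against 12.66, 12.69 and 12.55 with NC2 and 12.49, 12.38 and 12.51 with NC1. Its gap to the nearest control array was narrow. PSMD4 had 12.29, 12.18 and 12.26 with miR-17, against 12.61, 12.55 and 12.35 with NC2 and 12.64, 12.65 and 12.51 with NC1, below all 6. PSME3 and PSMG1 each had a second probe that was higher, by 0.37 and 0.50. The second PSMC6 probe gave 0.10, and the further PSMD4 probes -0.13 and -0.26. Leaving out miR-17 pulldown replicate 2 left 4 members called and leaving out its replicate 3 left 6. Over all genes these fits called 1010 and 1025, against 1869 on every array.

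Each catalytic replacement was again set against the subunit it replaces, and the change was tested by exact permutation over the arrays, two-sided, in a family of 18 tests. With miR-17 the PSMB9 to PSMB6 ratio differed by -0.82 and the PSMB8 to PSMB5 ratio by -0.66 on the log2 scale, each with an exact p of 0.0119, the smallest that 3 against 6 arrays allow (adjusted p = 0.107). The PSMB10 to PSMB7 ratio differed by 0.28 (exact p = 0.19). With miR-638 it differed by 0.70 (exact p = 0.0357, adjusted p = 0.161), and the PSMB8 to PSMB5 ratio by -0.37 (exact p = 0.0357). None of the 18 passed after adjustment, and 3 arrays against 3 cannot go below an exact p of 0.1. With these floors, a pulldown ratio could pass in this family only if several tests had very low p-values together. The mimic tests of the family permuted arrays across the replicate split. The adjusted result therefore cannot decide whether the ratios changed. PSMB6 itself differed by -0.19 with miR-17 (adjusted p = 0.119), its 3 arrays below the 6 controls, and PSMB5 by 0.00 (SE 0.08).

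The microRNA pulldowns share both controls, so they were also set against each other. PSMB9 was higher with miR-638 than with miR-17 by 0.81 (SE 0.12, adjusted p = 6.11e-04), with 7.80, 7.85 and 7.98 for miR-638, against 7.18, 7.06 and 6.98 for miR-17. PSMD11 was higher by 0.72 (adjusted p = 2.89e-04), PSMB10 by 0.53 (adjusted p = 0.0496) and PSME1 by 0.31 (adjusted p = 0.0215). PSME3 was lower by 0.64 (adjusted p = 0.00159), PSMG1 by 0.57 (adjusted p = 2.94e-04) and PSMB4 by 0.30 (adjusted p = 0.0174). These 7 of 41 stood beside 8.42% of all genes.

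PSME3 had 10.67, 10.52 and 10.60 with miR-638, against 11.16, 11.34 and 11.20 with miR-17, and PSMG1 had 11.67, 11.64 and 11.66, against 12.18, 12.33 and 12.17. Neither pair of groups overlapped, which held for 34.7% of all genes. The second probes gave -0.68 for PSME3, -0.54 for PSMG1 and 0.71 for PSMB9. Against both controls PSME3 was at -0.27 with miR-638 (adjusted p = 0.0786) and at 0.37 with miR-17. Leaving out any of the 6 microRNA arrays ended the calls of PSMB10 and PSME1, and PSME3 was the 1 member called on the authors' value table (-0.87, adjusted p = 0.0296).

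**Figure D5:**
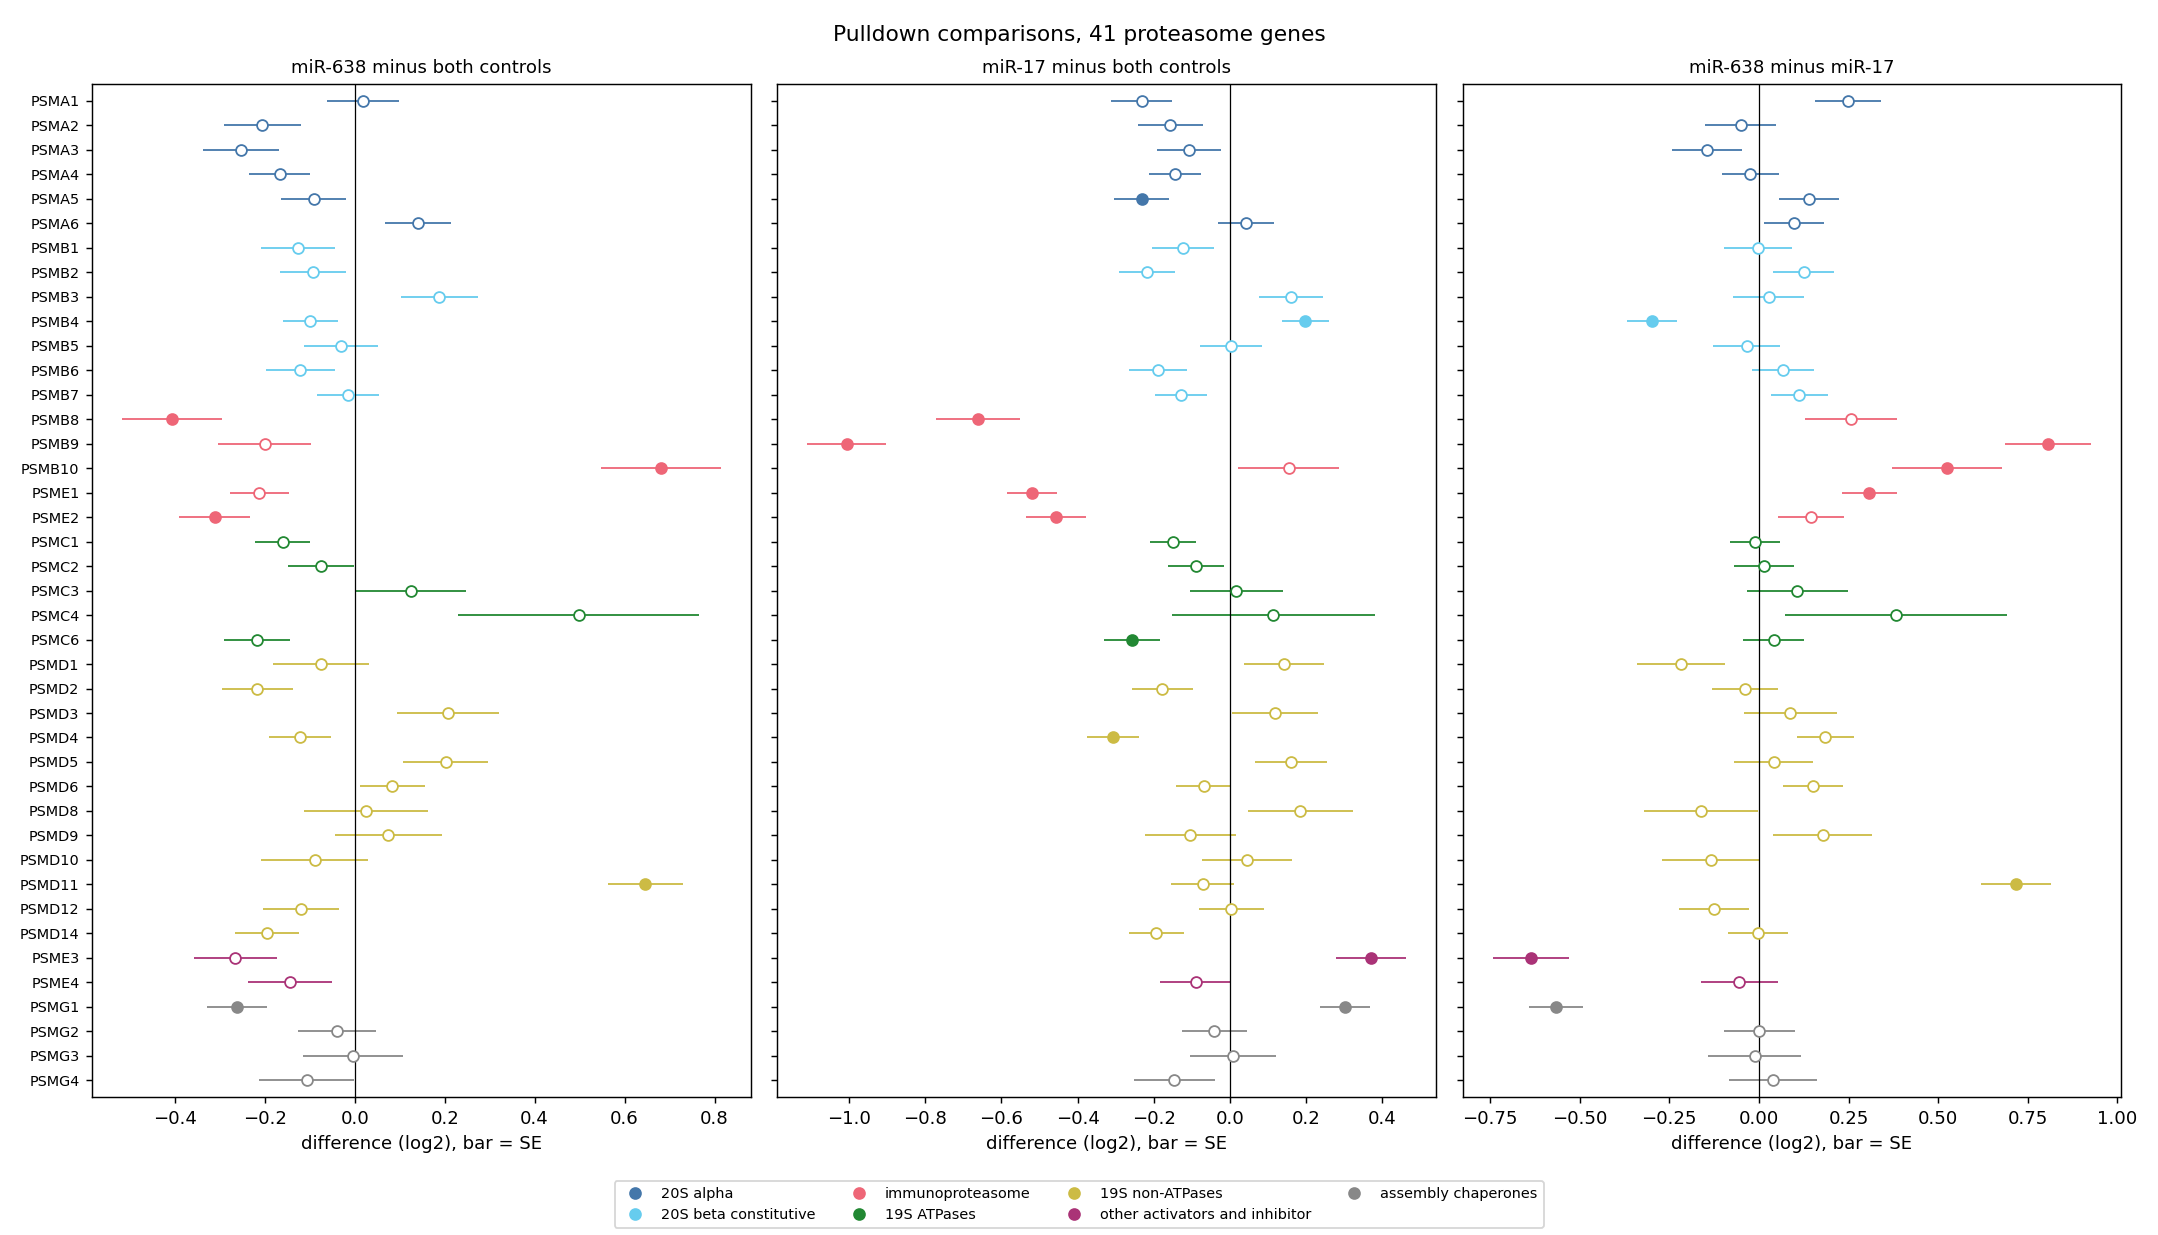
Differences (x axis, log2, bars of 1 SE) of the 41 tested proteasome genes (y axis) for the miR-638 pulldown minus both controls, the miR-17 pulldown minus both controls and the miR-638 minus the miR-17 pulldown, from left to right; the scales of the x axes differ. Filled points passed an adjusted p under 0.05, which 5, 10 and 7 genes did. The first 2 panels share their controls.

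The presentation and partner genes were read in the same pulldowns. Of the presentation genes 13 of 16 were tested. With miR-638 0 were higher and 6 lower than both controls, TAP1 by 0.59 and HLA-B by 0.45 among them, with a median of -0.32, where 4.59% of all genes were lower. Against NC2 alone 6 were lower, where 3.67% of all genes were, and against NC1 alone 1, ERAP2, where 4.71% were. With miR-17 0 were higher and 6 lower, TAP1 by 0.72 and ERAP2 by 1.14 among them, with a median of -0.33, where 5.99% of all genes were lower. Against NC2 alone 7 were lower, where 4.36% of all genes were, and against NC1 alone 2, TAP1 and ERAP2, where 5.44% were. The controls themselves differed in 6 of these 13 genes, all higher with NC2, where 3.07% of all genes were higher. Between the microRNAs 1 of 13 was called, where 8.42% of all genes were. This was IRF1, lower by 0.57 with miR-638 than with miR-17. Of the 23 partner genes tested, USP14, a deubiquitinase of the 19S particle, was higher with miR-638 than with both controls by 0.74 and UBA6 was lower by 0.29. With miR-17 RAD23B and UBA1 were higher and UBA6 and UBE3C lower. Of all genes 11.2% were called in either direction with miR-638 and 14.3% with miR-17. The summed blood markers ran from 310 to 369 with miR-638, 291 to 322 with miR-17, 271 to 291 with NC2 and 277 to 351 with NC1. The summed epithelial markers were higher with miR-638 than on every other pulldown array, at 10786 to 11054 with miR-638, 9736 to 10231 with miR-17, 8696 to 10279 with NC2 and 9236 to 10108 with NC1. Of the 5 epithelial markers tested, 2 were higher with miR-638 than with both controls, KRT18 by 1.76 (adjusted p = 0.034) and KRT8 by 0.63, and with miR-17 KRT8 was higher by 0.53, while KRT19, EPCAM and CDH1 were not called for either. The summed fibroblast markers ran from 90.4 to 119 with miR-638, 94.1 to 130.2 with miR-17, 91.9 to 133 with NC2 and 83.0 to 131 with NC1. The part of these markers in the pulldown differences was not tested.

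The control pulldowns differed from each other in 4 members, all higher with NC2 under the names of the signals, where 4.7% of all genes were called. PSMB2 was higher by 0.51 (SE 0.09, adjusted p = 0.00359), with 11.82, 11.98 and 11.95 in NC2, against 11.28, 11.59 and 11.35 in NC1. PSMD11 was higher by 0.40 (adjusted p = 0.0304), the ATPase PSMC2 by 0.36 (adjusted p = 0.0238) and PSME1 by 0.32 (adjusted p = 0.0292). PSMC2 had 11.79, 11.77 and 11.92 in NC2, against 11.33, 11.45 and 11.60 in NC1. In each of the 4 genes the NC2 arrays lay above the NC1 arrays, as they did in 11.1% of all genes. The presentation genes, of which 6 of 13 were higher with NC2, had a median of 0.46. Without NC2 pulldown replicate 3 only 1 member was called, and 2 were without NC1 pulldown replicate 1 or 3. Over all genes these fits called 311, 368 and 491, against 615 on every array. On the authors' value table, with its names, the 4 genes turned to between -0.57 and -0.33 and 0 members were called. A fit on the control arrays alone also called 0, with the direction of the signals.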

How the data were processed

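Illumina BeadChip arrays measured RNA of DU145 cells in 24 samples. The deposited table holds, per the file headers, an intensity on a linear scale and a detection p-value per probe, and the authors' value table is log2 with a floor of 4; the software behind both is not given in the sources used here. Probes were named through the platform annotation: 30113 of 47323 have 1 symbol, 8 several, and 17202 are not listed.

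Signals were corrected with neqc (limma 3.58.1, R 4.3.3; background from the detection p-value, offset 16, quantile normalization within each experiment). Genes detected (p below 0.05) on 4 or more mimic arrays, or 3 or more pulldown arrays, were tested with lmFit and eBayes (trend, two-sided), and adjusted over all genes by Benjamini-Hochberg. The offset understates changes of dim genes. The replicate split was fitted on the 6 combinations of group and replicate pair. Arrays of the same number deviated together in the mimic experiment (r from 0.68 to 0.77 over 12 pairs). Arrays of different numbers ran from -0.75 to 0.74 over 36 pairs. With the 6 combinations of group and replicate pair fitted, the correlation between arrays of the same number was 0.007. The numbers thus did not pair the mimic arrays beyond the replicate split. In the pulldown r for the same number ran from -0.33 to 0.56. The arrays' number limits the precision. Fits were tested on simulated data with noise independent between arrays. The mimic arrays did not vary in this way where the replicate split was not fitted, so that setting was not tested.

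The members and gene lists were chosen with earlier results of these data known. Named genes were the 5 immunoproteasome genes, PSMB5, PSMB6 and PSMB7, and up to 6 called members each way per comparison, by adjusted p; others named in a sentence on their role or list were chosen after their values were seen. Promoters and microRNAs came from RefSeq (GRCh38.p14). Alternatives were other normalizations, filters, probes, weights, fits, controls, the replicate block and leaving out each array. Figures were drawn with matplotlib 3.10.9.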

Additional observations from a re-analysis of the deposited data

Results flagged for a closer look

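In groups of 4 mimic arrays, an array was marked where its gap to the nearest other was above Dixon's critical value. Among 69 groups of named genes 2 were marked, and chance marks about 1 in 20. PSMB5 had 12.01 on NC1 mimic replicate 3, with the nearest array at 12.18, and 11.95 on NC2 mimic replicate 2, with the nearest at 11.71. Both lie in the comparison in which PSMB5 was called lower with NC2, and no array crossed to the other group's range.

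For PSMB10 the effect of the miR-638 mimic against NC2 differed between the replicate pairs by 0.60 (effect in replicates 1 and 2 minus effect in replicates 3 and 4, SE 0.13, adjusted p = 0.01). It was 0.28 within replicates 1 and 2 and -0.32 within replicates 3 and 4. Against NC1 the same difference was 0.14 (adjusted p = 0.911).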

How the results depend on the processing

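The number of proteasome genes called moved with the processing as follows. For the miR-638 mimic against both control mimics (1 of 41) it was 0 with median scaling, 0 without a filter and 0 against NC1 alone, 4 with the replicate block, and 0 to 1 over leaving out each array. For the NC2 against the NC1 mimic (2) it was 1 with median scaling, 1 without a filter, 14 with the replicate block and 1 to 2 over leaving out each array; 1 was left without NC1 replicate 2, 3 or 4 or NC2 replicate 2. For the miR-638 pulldown against both controls (5) it was 0 on the authors' value table, 11 with array weights, 2 against NC1 alone, 10 against NC2 alone and 2 to 9 over leaving out each array. For the miR-17 pulldown against both controls (10) it was 0 on the authors' value table and 4 to 13 over leaving out each array. The 13 were without NC2 replicate 1, where 2143 of all genes were called. For the miR-638 against the miR-17 pulldown (7) it was 1 on the authors' value table and 4 to 8 over leaving out each array. It was 4 without replicate 2 or 3 of either, where 623 to 699 of all genes were called. For the NC2 against the NC1 pulldown (4) it was 0 on the authors' value table, 0 in a fit on those groups alone and 1 to 4 over leaving out each array. For the replicate split (35) it was 38 with median scaling, 8 higher and 30 lower, and 26 on the authors' value table, 9 higher and 17 lower. Over all genes these 2 settings called 7024 and 5420, against 7248. Over leaving out each array 34 to 36 of 41 were called in the split. The cause of these changes was not tested. The difference of the miR-638 effect between replicate pairs gave 0 members in every setting run.

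The NC2 against NC1 pulldown values that turned on the authors' value table, where those columns carry the other name, were -0.34 for PSME1, -0.57 for PSMB2, -0.33 for PSMC2 and -0.34 for PSMD11. Over all genes the block called 2438 against 423 for the miR-638 mimic and 4169 against 1276 for the control mimics, and NC2 alone gave 869. In the pulldowns the authors' value table called 92 against 1461, 206 against 1869, 132 against 1102 and 4 against 615 in the order above, and array weights 2507, 2854 and 2442 in the first 3. Fits on the groups of a comparison alone called 839 against 1461, 2630 against 1102 and 100 against 615. The difference between replicate pairs called 64 genes, against 33 after quantile normalization alone or without a filter, 34 with median scaling and 14 on the authors' value table. Of the genes called in the replicate split 45.9% were higher, and 56.7% on the authors' value table. The pulldown numbers did not pair the arrays, and the block called 5, 8, 6 and 3 members there in the same order. For the difference between pairs the replicate block called 0 members and 95 genes. The replicate split cannot take the number as a fixed block, and with a random block, chosen after seeing the data, 35 members were called again, 10 higher and 25 lower. Of 1867 values of named genes under alternatives, 4 reversed, 123 lost the call and 12 gained it. Few arrays and the offset limit what dim genes can show.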
